A study of Caenorhabditis elegans with 2 samples.

Results

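The 7 genes described here act in the turning of the gonad's distal tip cells and in its DAF-12 linked timing. They are the netrin gene unc-6, the netrin receptor genes unc-40 and unc-5, the TGF-beta family ligand gene unc-129, the metalloprotease gene gon-1, and the timing genes blmp-1 and dre-1. They were listed by name for these roles and are 7 of 19973 nuclear protein-coding genes. A region was counted at a gene where its summit, the base of highest enrichment within it, lay inside the annotated gene or within 3000 bp of it. This gave 46 of the 30000 pooled regions, 40 of the 30000 regions of replicate 1 and 44 of the 23934 regions of replicate 2.

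In each arm of the developing worm gonad, a distal tip cell leads the outgrowth along the ventral body wall, turns dorsally in the third larval stage and then migrates back towards the midbody. UNC-6 netrin is a secreted ventral cue, and the receptor UNC-5, acting with UNC-40, steers the cell away from it, so the onset of unc-5 expression sets when the dorsal turn begins. BLMP-1, a zinc finger repressor of the Blimp-1 family, holds unc-5 expression back in early larvae, and DRE-1, the F-box subunit of an SCF ubiquitin ligase, marks BLMP-1 for degradation. DAF-12, a nuclear hormone receptor, acts in parallel with DRE-1 and LIN-29 in timing the turn, which is why DNA at these genes is of interest in a DAF-12 profile.

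The study immunoprecipitated eGFP-tagged DAF-12 from whole L4 larvae and sequenced the recovered DNA. All worms were of strain OP222, which carries the unc-119(ed3) allele on chromosome III and the integrated transgene wgIs222 for tagged daf-12, and the sexes were pooled. There were 2 biological replicates of 1 group, so no condition, stage or untagged strain was compared and no test was made. The larvae were at the stage after the one in which the dorsal turn takes place, and in whole worms the distal tip cells are a very small share of the chromatin, so a region here cannot be placed in any cell type.

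Signal is the authors' enrichment value for each region. Its scale is unstated, and so signals and ranks were read within 1 list at a time, and rank 1 is the strongest. Read depth is unknown, because the lists hold no read counts. A region with a q-value below 0.05 was called past that limit, and this held for 5.61% of nuclear pooled regions, 16.6% of nuclear replicate 1 regions and 59.6% of nuclear replicate 2 regions. Most regions of the pooled and replicate 1 lists are therefore not past it. Of nuclear pooled regions, 62% overlapped a region of replicate 1, 39.2% one of replicate 2 and 17.7% one of each. The replicate 2 list had a single smallest q-value, 0.00357, held by 2945 regions, so q-values do not rank its strongest regions.

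All 7 genes had a region in every list, at a background of 90.9% of coding genes with a pooled region and 80.6% with a region in both replicate lists. None of the 46 pooled regions had a q-value below 0.05. The smallest was 0.0590, at blmp-1, and 0 of the 7 genes had such a region against 13.7% of coding genes. The list that the authors thresholded for reproducibility held 48 peaks, and 0 of them lay at these genes. With 48 peaks for 19973 coding genes most genes have none, so this 0 does not set the 7 apart. In replicate 1, 6 of 40 regions (15%) were past the limit, and in replicate 2, 29 of 44 (65.9%). Both shares lay near those of their whole lists.

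The sequences below are the 201 bases centred on the pooled summits of 4 of the genes, shown because they carry the main descriptions there, read from the RefSeq genome of WBcel235 (ce11) on the strand of each gene. They are the unc-129 upstream region (chrIV:9005780-9005980, minus strand), the strongest gon-1 region (chrIV:9945493-9945693, minus strand), the dre-1 intron region that overlapped both replicate lists (chrV:6539768-6539968, minus strand) and the single unc-6 region (chrX:6889100-6889300, plus strand). Capitals mark the nuclear receptor half-site hexamers AGTGCA and AGGACA, which were searched on both strands and do not overlap one another here.
unc-129: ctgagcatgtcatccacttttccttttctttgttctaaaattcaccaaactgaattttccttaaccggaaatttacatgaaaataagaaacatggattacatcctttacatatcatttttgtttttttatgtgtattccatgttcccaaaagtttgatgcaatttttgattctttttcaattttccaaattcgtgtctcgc
gon-1: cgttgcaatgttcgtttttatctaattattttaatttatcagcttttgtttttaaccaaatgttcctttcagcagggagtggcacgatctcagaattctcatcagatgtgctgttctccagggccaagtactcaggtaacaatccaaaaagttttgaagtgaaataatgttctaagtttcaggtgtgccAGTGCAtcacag
dre-1: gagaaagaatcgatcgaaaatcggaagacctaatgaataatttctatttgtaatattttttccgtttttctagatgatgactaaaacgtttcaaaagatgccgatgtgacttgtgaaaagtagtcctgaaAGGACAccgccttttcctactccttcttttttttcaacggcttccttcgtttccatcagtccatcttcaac
unc-6: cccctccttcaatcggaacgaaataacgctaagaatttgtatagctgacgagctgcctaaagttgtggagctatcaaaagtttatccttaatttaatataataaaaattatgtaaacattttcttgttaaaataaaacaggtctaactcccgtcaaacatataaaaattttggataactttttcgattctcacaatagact

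The gon-1 window held 1 copy of AGTGCA and the dre-1 window 1 copy of AGGACA, and the other windows printed held neither hexamer. The GC content of these windows was 30.3% for unc-129, 30.8% for unc-6, 36.8% for dre-1 and 37.8% for gon-1. Over whole regions the median GC content was 34.2% at the 7 genes and 32.9% over all nuclear pooled regions.

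**Figure D1:**
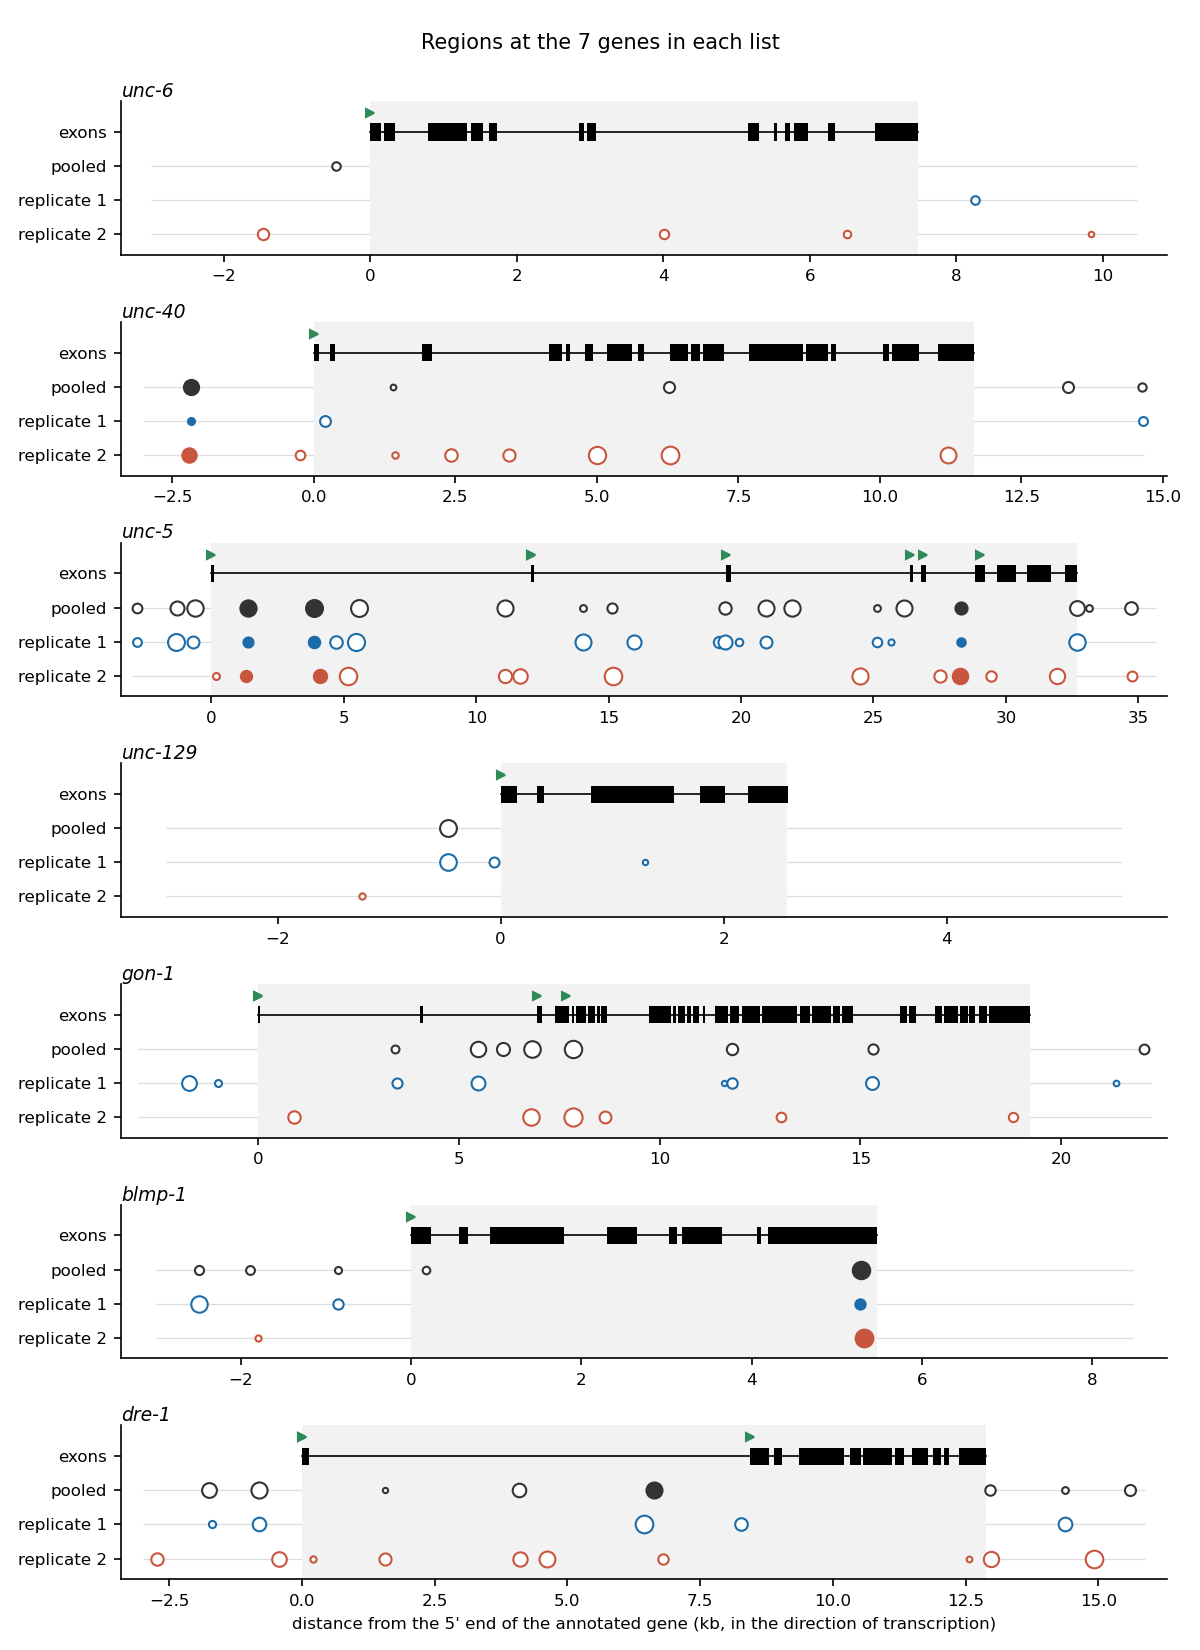
Region summits at the 7 genes in the pooled, replicate 1 and replicate 2 lists, plotted by distance in kb from the 5′ end of the annotated gene in the direction of transcription. Black boxes are exons of any transcript, triangles are transcript starts (starts closer together than a marker overlap), grey shading is the gene, and a circle grows with the region's signal percentile within its own list. Filled circles mark pooled regions that overlapped a region of each replicate and replicate regions that overlapped a region of the other replicate. The 18 pooled regions of unc-5 run along its whole length, while unc-6 and unc-129 had 1 each, both upstream.

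The ligand gene unc-6 (WBGene00006746, chromosome X, 6889674 to 6897147, plus strand) had the weakest best region of the 7 in the pooled and replicate 1 lists. Its single pooled region, at chrX:6889048-6889351, had its summit 474 bp upstream of the start, with a signal of 4.84 that ranked 22360 and a q-value of 0.694. No region of either replicate overlapped it. Replicate 1 had 1 region at unc-6, 789 bp past the 3′ end, with a signal of 3.45 that ranked 22222. Replicate 2 had 4, with signals of 2.04 to 2.89, and the strongest lay 1463 bp upstream and ranked 12676, with a q-value of 0.0339. The 3 lists thus had no region in common at unc-6. Its pooled and replicate 1 counts were low for its length and its replicate 2 count was not. Among 2494 coding genes whose windows were within 20% of its length, the median was 4 pooled regions, and 3.25% had fewer than 1. In replicate 1 the median of those genes was 4 regions, and 2.61% had fewer than 1. In replicate 2 it was 3 regions, and 62.9% had fewer than 4.

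The receptor gene unc-40 (WBGene00006776, chromosome I, 5679837 to 5691503, minus strand), the worm homologue of DCC, had 5 pooled regions, 3 in replicate 1 and 8 in replicate 2. Its strongest pooled region (5693516 to 5693819) had a signal of 7.29 that ranked 7102, and was found in replicate 1 at rank 25832 (signal 3.15) and in replicate 2 at rank 7127 (signal 3.62). The summit lay 2165 bp upstream of unc-40 but inside a coding exon of npp-7, a nuclear pore gene, whose start was nearer at 1404 bp. With 1000 bp in place of 3000 bp this region dropped out, and the best pooled rank at unc-40 became 16601. That next region (5685079 to 5685382) lay in an intron 6272 bp from the 5′ end, with a pooled signal of 5.52. In replicate 2 the overlapping region was the strongest at unc-40, at rank 1062 with a signal of 5.73, and replicate 1 had none there. The replicate 2 summit lay in a coding exon. The next replicate 2 region, in an intron 4996 bp from the 5′ end, had a signal of 5.22 and ranked 1742, and it overlapped no pooled region. The other regions past the 3′ end of unc-40 lay nearer to other starts. They were 5678025 to 5678328 (signal 5.52, rank 16602), 461 bp from the start of aprt-1, and 5676720 to 5677023 (signal 4.78, rank 22870), 45 bp from that of dnj-21. In replicate 2, 6 of 8 regions at unc-40 passed a q-value of 0.05, against 59.6% of that list, and in replicate 1, 0 of 3 did, against 16.6%.

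The receptor gene unc-5 (WBGene00006745, chromosome IV, 5495664 to 5528338, minus strand) had the most regions, with 18 pooled, 17 in replicate 1 and 13 in replicate 2. At 32675 bp it is also the longest of the 7 genes, with 7 annotated transcript starts, and the exons of its 5′ part lie far apart. Of the pooled summits, 12 lay in introns of unc-5, 3 upstream and 3 past the 3′ end, and none lay in a coding exon. The 3 past the 3′ end were nearer to the start of B0273.1. The strongest region (5524297 to 5524600), in the long first intron 3889 bp from the 5′ end, had a signal of 8.91 that ranked 2999, with a q-value of 0.115. It overlapped a region of rank 15674 in replicate 1 (signal 4.11) and one of rank 9153 in replicate 2 (signal 3.31). In the same intron, 5579 bp from the 5′ end, the second region (5522607 to 5522910, signal 8.86, rank 3069) overlapped the strongest unc-5 region of replicate 1, at rank 2622 with a signal of 7.03, and none of replicate 2.

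Upstream of unc-5, the nearest pooled region (5528799 to 5529102) had its summit 613 bp from the first start, with a signal of 8.25 that ranked 4327. Replicate 1 listed it at rank 14580 and replicate 2 did not. The other unc-5 regions found in both replicates also lay in introns. The first of these (5526793 to 5527096), 1393 bp from the 5′ end, had a pooled signal of 8.11 and ranks of 4685 pooled, 18756 in replicate 1 and 12871 in replicate 2. The second (5499878 to 5500181), 709 bp upstream of the start of the transcript B0273.4f.1, had a pooled signal of 5.86 and ranks of 14119, 22462 and 5078. At unc-5, then, the best rank of a region present in all 3 lists was 15674 in replicate 1 and 5078 in replicate 2. The latter had a q-value of 0.00542. The strongest replicate 2 region at unc-5 (rank 1211, signal 5.62) lay 15153 bp from the 5′ end, where the pooled region ranked 18696 and replicate 1 had none.

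The count at unc-5 was high for its length as well. Among 96 coding genes with windows within 20% of its length, the median was 10 pooled regions and 92.7% had fewer than 18. In replicate 1 the median of those genes was 10 and 90.6% had fewer than 17, and in replicate 2 it was 7 and 90.6% had fewer than 13. The window of unc-5 also held 122 piRNA genes, which lie in clusters on this chromosome. For 16 of its 18 pooled regions the nearest start of another gene was that of a piRNA gene. So many piRNA genes in 38675 bp make this likely at most positions of the window, and the share over all positions was not computed. The other 6 genes had 0 or 1 piRNA gene in their windows. The part of the piRNA genes in the count at unc-5 was not tested.

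**Figure D2:**
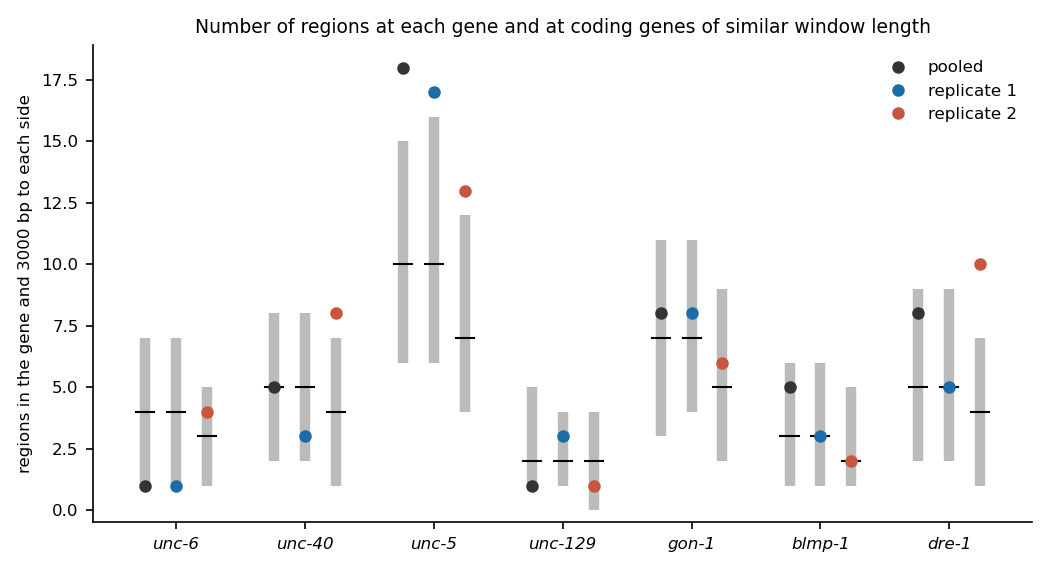
Number of regions in the gene and 3000 bp to each side, for each of the 7 genes and each list. Points are the gene's count, and grey bars run from the 10th to the 90th percentile of coding genes whose windows are within 20% of its length, with a black line at their median. The 18 pooled and 17 replicate 1 regions of unc-5 lie above the bars, as do the 13, 8 and 10 replicate 2 regions of unc-5, unc-40 and dre-1.

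The TGF-beta family ligand gene unc-129 (WBGene00006852, chromosome IV, 9002839 to 9005410, minus strand), which is expressed in dorsal body wall muscle and acts in guidance with UNC-5 and UNC-40, had 1 pooled region, 3 in replicate 1 and 1 in replicate 2. The pooled region (9005728 to 9006031) lay between genes, 470 bp upstream of the start, with a signal of 8.78 that ranked 3198 and a q-value of 0.126. Replicate 1 listed the same coordinates at rank 3662, with a signal of 6.52 and a q-value of 0.0234. The region of replicate 2 did not overlap them. It lay 1241 bp upstream, with a signal of 2.12 that ranked 22005. The upstream region of unc-129 was thus well placed in replicate 1 and was not found in replicate 2. Its pooled signal was above the strongest one at 77.0% of the 13062 coding genes of similar window length.

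The metalloprotease gene gon-1 (WBGene00001650, chromosome IV, 9934206 to 9953433, minus strand) encodes a secreted ADAMTS enzyme that distal tip cells need in order to move through basement membrane. It had 8 pooled regions, 8 in replicate 1 and 6 in replicate 2. The strongest (9945441 to 9945744) had a signal of 9.70 that ranked 1966, with a q-value of 0.0618. Its summit lay in a coding exon, 182 bp downstream of the start of the transcript F25H8.3b.1, one of 4 annotated starts. Replicate 2 had the same summit at rank 112 with a signal of 8.30, the best rank at the 7 genes in that list. Replicate 1 had no region there. Among 346 coding genes of similar window length, 97.4% had a weaker strongest region in replicate 2. The AGTGCA copy in its printed window (9945499 to 9945504) began 89 bp from the summit.

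The second pooled region of gon-1 (9946454 to 9946757) lay in an intron 109 bp upstream of the start of F25H8.3a.2, with a signal of 8.49 that ranked 3776. It too was listed in replicate 2 (rank 3159, signal 4.56) and not in replicate 1. The third (9947793 to 9948096, signal 7.48, rank 6462) was the reverse, with a rank of 10072 in replicate 1 and no region in replicate 2, and its summit lay in the noncoding RNA gene T13H10.9. None of the 8 pooled regions of gon-1 overlapped a region of each replicate. In replicate 2, 4 of 6 gon-1 regions passed a q-value of 0.05, against 59.6% of that list, and in replicate 1, 0 of 8 did, against 16.6%. Of its weaker pooled regions, 1 lay nearer to the start of spe-29 and 1 nearer to that of trmt-10A. The strongest gon-1 region of replicate 1, 1718 bp upstream, had a signal of 5.29 that ranked 7895 and was absent from the pooled list.

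Of the timing genes, blmp-1 (WBGene00003847, chromosome I, 10409302 to 10414773, plus strand) had the strongest pooled region of all 7 genes. This region (10414429 to 10414732) had a signal of 9.76 that ranked 1908, and its summit lay in the 3′ UTR, 5279 bp from the 5′ end. It was found in both replicates, at rank 922 in replicate 2 (signal 5.89) and at rank 18311 in replicate 1 (signal 3.82). The first replicate thus placed it in the weaker part of its list. Upstream of blmp-1 the pooled list had 3 regions, at 857, 1893 and 2494 bp from the start, with signals of 4.50, 4.92 and 4.99 that ranked 25780, 21621 and 21057. The farthest of these (10406656 to 10406959), which holds a half-site, was the strongest blmp-1 region of replicate 1, at rank 4079 with a signal of 6.35 and a q-value of 0.0310, and replicate 2 had none there. In all, blmp-1 had 5 pooled regions, 3 in replicate 1 and 2 in replicate 2, and no other coding start was nearer to any pooled one.

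The F-box gene dre-1 (WBGene00001089, chromosome V, 6533614 to 6546500, minus strand) had 8 pooled regions, 5 in replicate 1 and 10 in replicate 2. The strongest (6547153 to 6547456) lay 805 bp upstream of the gene, with a signal of 8.05 that ranked 4827. Replicate 1 listed it at rank 10672 with a signal of 4.79 and replicate 2 did not. The second (6539716 to 6540019, signal 7.94, rank 5111) lay in the long first intron, 6632 bp from the 5′ end, and overlapped a region of each replicate. It is the region whose printed window holds AGGACA (6539833 to 6539838), 30 bp from the pooled summit. The overlapping region of replicate 1 ranked 1372 with a signal of 8.07, the best rank at any of the 7 genes in that list, with its summit 196 bp away. That of replicate 2 ranked 14463 with a signal of 2.71, its summit 177 bp away on the other side, and the regions of the replicates did not overlap each other. Neither of these replicate regions held a half-site within 100 bp of its own summit.

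The third pooled region of dre-1 (6548096 to 6548399, signal 7.09, rank 7905) lay 1748 bp upstream and was found in replicate 1 alone. Replicate 2 had its strongest dre-1 region past the 3′ end, 2037 bp away inside the acyl-CoA synthetase gene acs-1, at rank 1148 with a signal of 5.67. Of the 8 pooled regions at dre-1, 4 lay nearer to the start of another coding gene, namely K04A8.20, acs-1 and, for the remaining regions, hpo-26. The count of 10 in replicate 2 exceeded that of 97.9% of the 896 coding genes of similar window length, while 5 in replicate 1 was equal to their median.

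**Figure D3:**
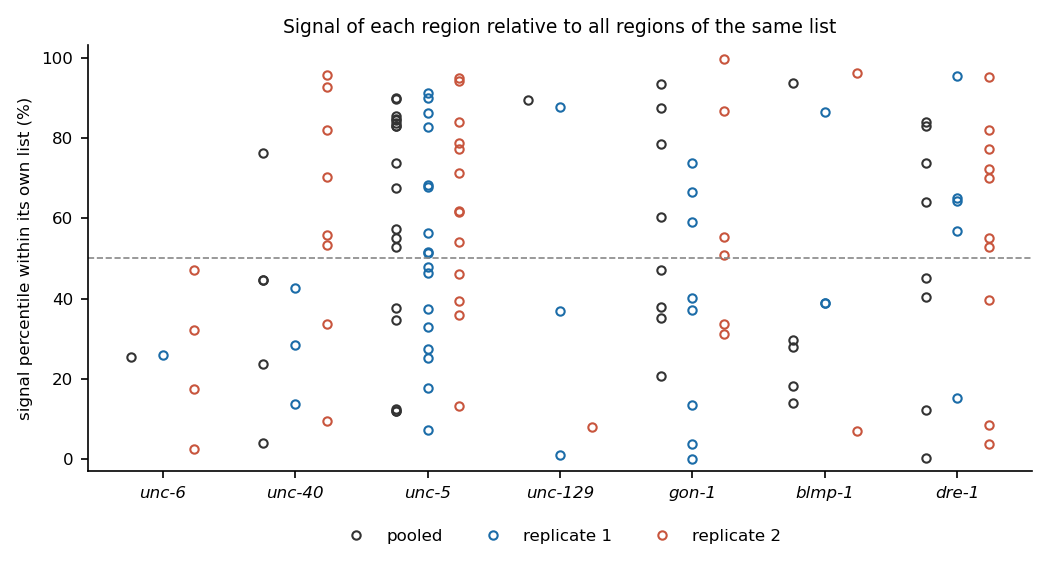
Signal percentile of each region at the 7 genes within its own list, where 100 is the strongest region and the dashed line is the middle of the list. Each circle is 1 region, in black for the pooled list, blue for replicate 1 and red for replicate 2. The gon-1 region of replicate 2 that ranked 112 lies at 99.5%, while the unc-6 regions of every list lie below the middle.

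Over all 7 genes, the median pooled signal was 5.91, against 5.74 over all nuclear pooled regions. In replicate 1 it was 4.01 at the 7 genes against 4.19, and in replicate 2 it was 3.11 against 2.96. Signals at the 7 genes spanned 4.13 to 9.76 in the pooled list, whose lowest value was 4.12. None of the 46 ranked within the first 1000 pooled regions and 11 ranked within the first 5000. Within the first 1000 of their lists were 0 of 40 regions of replicate 1 and 2 of 44 of replicate 2, at gon-1 and blmp-1. Their windows were long, with a median of 17667 bp against 8027 bp over coding genes, and per 10 kb the median was 3.17 pooled regions against 2.83. In replicate 1 the same medians were 2.65 and 2.83, and in replicate 2 they were 2.97 and 2.34.

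Agreement between replicates at these genes was low, as it was in the lists as a whole. Of the 46 pooled regions, 6 (13.0%) overlapped a region of each replicate, 20 (43.5%) one of replicate 1 alone, 11 (23.9%) one of replicate 2 alone and 9 (19.6%) neither. Over all nuclear pooled regions the first share was 17.7%. The 6 regions lay at 4 genes, 3 at unc-5 and 1 each at unc-40, blmp-1 and dre-1, and 35.3% of coding genes had such a region. Among coding genes of similar window length that share was larger for most of the 7, from 33.3% at the length of unc-129 to 77.1% at that of unc-5. The pooled list is made from the reads of both replicates, so its overlap with either is not independent of that replicate. Compared directly, 5 of the 40 replicate 1 regions (12.5%) overlapped a replicate 2 region, where all nuclear regions gave 18.2%. From the other side, 5 of 44 replicate 2 regions (11.4%) did, against 22.4%. These lay at unc-5 (3), unc-40 (1) and blmp-1 (1). The count of 6 fell to 3 where summits had to lie within 100 bp of each other and to 0 where the upper 50% of each replicate list by signal was used.

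**Figure D4:**
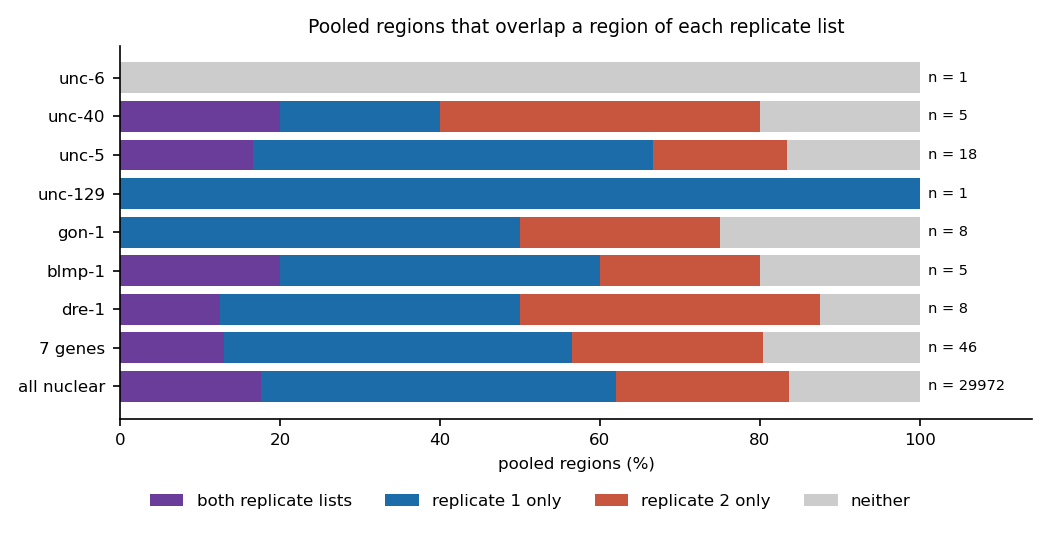
Share of pooled regions, in percent, that overlapped by at least 1 bp a region of both replicate lists, of 1 of them or of neither, for each gene, for the 7 genes together and for all nuclear pooled regions. The number of pooled regions is at the right of each bar. The share found in both was 13.0% of 46 at the 7 genes and 17.7% of 29972 over all.

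Regions that ranked higher in the pooled list recurred more often over all regions, and at these genes the counts were small. The pooled list is made from the reads of both replicates, so rank in it and recurrence are not independent. Of pooled ranks 1001 to 5000, 41.2% of all nuclear regions overlapped a region of each replicate, and at the 7 genes 3 of 11 did. Of ranks 5001 to 10000 the values were 23.9% and 2 of 8, and of ranks 10001 to 20000 they were 12.02% and 1 of 14. Of ranks 20001 to 30000, 6.60% of all regions and 0 of 13 at the 7 genes did. The 61.5% share of the first 1000 ranks has no counterpart here, because no region at these genes ranked there.

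By position, the regions at the 7 genes were mainly intronic, as their sequence is. Of the 46 pooled summits, 23 (50%) lay in introns, which make up 53.2% of the bases of the 7 windows, and 14 (30.4%) lay between genes, which make up 20.2%. Coding exons held 8 (17.4%), against 22.3% of the bases, and 3′ UTRs held 1. Within 1000 bp upstream to 200 bp downstream of a coding start of any gene lay 18 summits (39.1%), against 29.5% of all nuclear pooled regions. The regions here were all chosen within 3000 bp of a coding gene and the whole list was not, so these shares are not like for like. A start of the gene itself was within 1000 bp of 13 summits. For 12 of the 46, the start of another coding gene was nearer, and 6 of the summits lay inside another coding gene. A region within 3000 bp is thus not always nearest to the gene it is listed under here.

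Half-sites were present at few of the regions. Within 100 bp of the summit, 7 of 46 pooled regions (15.2%) held AGTGCA or AGGACA on either strand, against 11.1% of all nuclear pooled regions. They were 2 of 5 at unc-40, 2 of 8 at gon-1, 1 of 5 at blmp-1, 1 of 8 at dre-1, 1 of 18 at unc-5 and none at unc-6 or unc-129. Both at unc-40 lay past its 3′ end and nearer to the starts of aprt-1 and dnj-21. Of those at gon-1, 1 lay past the 3′ end, inside trmt-10A. In replicate 1 the share was 4 of 40 (10%), against 11.2% of its nuclear regions. In replicate 2 it was 11 of 44 (25%), against 11.65%, and 4 of those 11 were at gon-1. With 200 bp to each side of the summit the share of pooled regions was 26.1% at the 7 genes and 21.5% over all nuclear ones. With 50 bp to each side the shares were 13.0% and 5.46%. A hexamer of this length occurs often, and its presence in a window does not mark a site that DAF-12 occupies.

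Just inside the limit of 3000 bp lay a weak pooled region at unc-40, 2965 bp past its 3′ end (signal 4.78, rank 22870), and one at gon-1, 2829 bp past its 3′ end (signal 5.17, rank 19461). The 11 pooled regions between 3000 and 5000 bp from the genes ranked from 1396 to 27999. The nearest were weak, 3020 bp from unc-40 (signal 4.76, rank 23066) and 3127 bp from unc-6 (signal 4.80, rank 22743). The strongest lay farther out. At unc-5 a region 3715 bp past the 3′ end (chrIV:5491797-5492100) had a signal of 10.4 that ranked 1396 and a q-value of 0.0441. At gon-1 a region 4279 bp upstream (chrIV:9957560-9957863) had a signal of 9.37, ranked 2310 and overlapped a region of each replicate.

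Other genes of distal tip cell migration and of stage timing were read in the same way, from a list of 72 genes in 5 groups. Of these, 70 had a pooled region, 40 (55.6%) had one found in both replicates against 35.3% of coding genes, and 17 (23.6%) had one with a q-value below 0.05 against 13.7%. Their windows were long too, with a median of 13152 bp, and length was not adjusted for. The count of 40 was 26 with gene bodies alone, 26 with an overlap of at least 50%, 22 with summits within 100 bp and 21 with the upper 50% of each replicate list. At the 7 genes the corresponding counts were 4 of 7 with a region found in both replicates and 0 of 7 past the limit.

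The stage timing group had the strongest regions of the list, with 7 of 17 genes past the q-value limit and 10 of 17 with a region found in both replicates. That group includes daf-12, the tagged gene, with a best rank of 52 (signal 19.4), and without it the counts were 6 and 9 of 16. The let-7 family microRNA genes mir-48 and mir-241 lie close together and shared a region of rank 26 (signal 39.5). The counts above include each of them. A region of din-1, which encodes a DAF-12 cofactor, ranked 37 (22.7), one of lin-42, the worm Period homologue, ranked 218 (13.7), and one of the heterochronic gene lin-14 ranked 377 (12.7). Each of these was found in both replicates apart from the daf-12 region, and the best region of let-7 (rank 841, signal 11.3) was not. The gene lin-29, which acts with daf-12 and dre-1 in the turn, had a best rank of 2240 (signal 9.43) and no region found in both replicates. The SCF genes cul-1 and skr-1, whose products work with DRE-1, had no pooled region. In the replicate lists cul-1 had 1 region in replicate 1 and 0 in replicate 2, and skr-1 had 3 and 1.

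Among the guidance genes, 9 of 18 had a region found in both replicates and 5 had one past the limit. The best ranks were 494 at vab-1, an Eph receptor gene (signal 12.3), and 527 at unc-73, which encodes a Trio-like exchange factor (12.2). Next came unc-53 at rank 748 (signal 11.5). The median best rank of these 18 guidance genes was 4434.5. Against that median the best pooled region of unc-5 (2999) was stronger, and those of unc-40 (7102) and unc-6 (22360) were weaker. Of the 19 matrix, protease and matrix receptor genes, 13 had a region found in both replicates and 3 one past the limit. The strongest of these lay at dgn-1, a dystroglycan gene, at rank 113 (signal 15.5), with ranks of 131 in replicate 1 and 11547 in replicate 2. The perlecan gene unc-52 followed at rank 211 (signal 13.8), with ranks of 272 and 19187. Of the 6 TGF-beta related genes, 2 had a region found in both replicates, and the glypican gene lon-2 had the strongest, at rank 215 (signal 13.8), ranks 24144 in replicate 1 and 458 in replicate 2. Of the 12 genes of distal tip cell identity and leading, 6 had a region found in both replicates and 1 one past the limit. The best region of lag-2, the Notch ligand gene that marks the distal tip cell, ranked 8664 (signal 6.89).

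**Figure D5:**
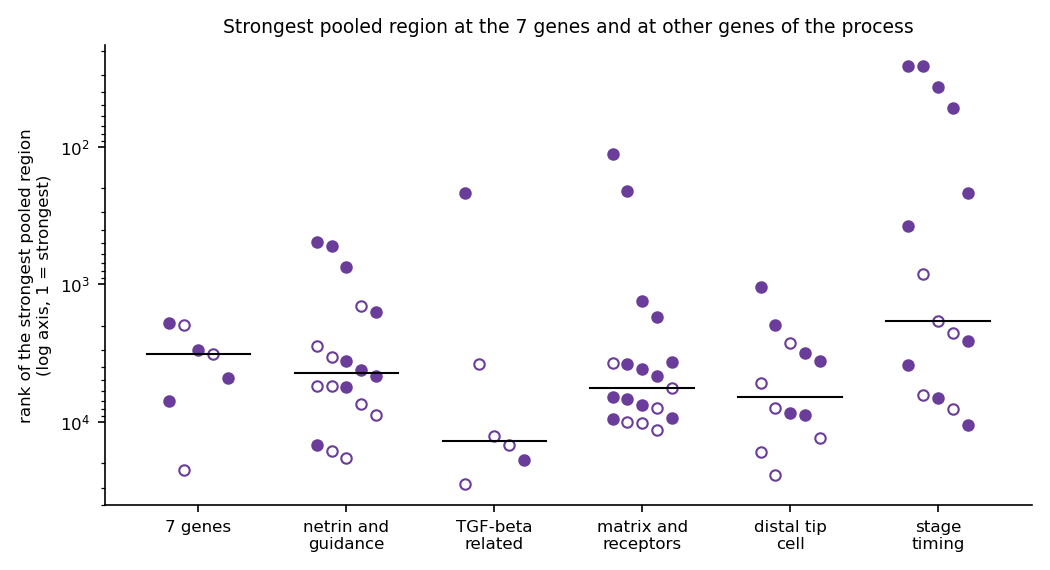
Rank of the strongest pooled region at each of the 7 genes and at each of the 70 listed genes with a pooled region, by group, on a log axis with rank 1 at the top. Filled points are genes with at least 1 pooled region found in both replicates, open points are genes without one, and lines are group medians. The 7 genes span ranks 1908 to 22360, and the 13 points above rank 1000 belong to other genes, 7 of them in the stage timing group. The median signal of the strongest pooled region was 8.78 at the 7 genes and 8.22 at the 70 listed genes. Window length was not adjusted for. In the stage timing group are the microRNA genes named next. These, mir-48 and mir-241, share a region and are drawn as a point each.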

How the data were processed

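Tagged DAF-12 ChIP-seq lists from 2 biological replicates of 1 group were analysed. Per the labels' text lists, the authors called each replicate list and the pooled list from ChIP alignments and a control file, and derived the thresholded list from these. Not given in the sources used here are the aligner, the caller, any version and the IDR threshold. The deposited signal is an enrichment value of unstated scale, and the deposited q-values were read as −log10 values. Median region width was 304 bp in the pooled and replicate 1 lists and 260 bp in replicate 2. The ce10 lists were not used here. From the ce11 lists, summits were placed on Ensembl release 115 genes (WBcel235) with 3000 bp to each side, and regions were called found in a replicate at an overlap of at least 1 bp. Python 3.11.15, numpy 2.4.6, pandas 2.3.3 and matplotlib 3.10.9 were used, and placement was tested on simulated data. Depth is unknown and no counting interval is given.

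The members and the gene lists were chosen with earlier results of these data known, so no test was made over them. The text names all 7 genes, their 3 strongest pooled regions and those found in both replicates, listed genes with a rank within 1000, and nearer coding genes. The regions of single replicates, lin-29, lag-2, cul-1 and skr-1 were named after their values were seen. Alternatives changed the distance, the q-value limit, the overlap, the half-site window and the replicate used. Some sequence is not reported here.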

Additional observations from a re-analysis of the deposited data

How the results depend on the processing

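No paired analysis was possible because the samples form 1 group. Of 36 alternatives for the counts and shares over all genes, 21 stayed within 1.5 times the value reported and 15 moved further. With gene bodies alone the regions at the 7 genes were 26 (not 46) and the listed genes with a region found in both replicates 26 (not 40). With 5000 bp to each side 1 region had a q-value below 0.05, and with that limit as a filter 0 of 46 regions were left. Replicate 1 alone gave 6 of 40 regions past it (15%), against 16.6% of its nuclear regions, and a half-site share of 10%, against 11.2%. Replicate 2 alone gave 29 of 44 (65.9%), against 59.6%, and a half-site share of 25%, against 11.65%. An overlap of at least 50% left 26 listed genes, summits within 100 bp left 3 regions at the 7 genes and 22 listed genes, and the upper 50% of each replicate list left 0 regions, 0 of the 7 genes and 21 listed genes. Under these rules the shares of all nuclear pooled regions found in both were 10.7%, 8.04% and 5.72%, in that order. A half-site window of 200 bp gave 26.1%, and 21.5% over all nuclear pooled regions. A window of 50 bp gave 13.0% and 5.46%. For single genes, 39 of 82 alternatives moved the count or the best rank. Some of these set a pooled rank against a rank in a single replicate list, so such a move also reflects the change of list. A best rank had no value at unc-6 and unc-129 with gene bodies alone, and at any of the 7 genes with the q-value filter. The causes were not tested. Depth is unknown, so the absence of a region from a list does not show that DAF-12 was absent.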
